A study of Mus musculus with 10 samples.

Results

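The nuclear-encoded genes of the mitochondrial respiratory chain were followed through the formation of primordial germ cell-like cells. Members were the gene symbols that start with Nduf, Uqcr, Atp5, Sdha, Sdhb, Sdhc or Sdhd, or with Cox and a digit from 4 to 8 followed by a, b or c, without symbols that hold -ps. Of 108 matching symbols, 9 were left out for -ps, and 95 of the remaining 99 had a mean of at least 1 TPM over the 10 libraries, out of 36066 genes in all. Cox6a2, Ndufa11b, Ndufa4l2 and Cox8b stood below that limit, with mean values of 0.416, 0.39, 0.148 and 0 TPM, and the members just above it were Sdhaf1 (3.96 TPM), Cox8c (7.86 TPM) and Sdhaf3 (10.2 TPM).

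RNA of 5 groups of C57BL6 mouse cells was sequenced, with 2 replicates in each. ESCs were female embryonic stem cells from fertilized embryos. The pESCs were embryonic stem cells from chemically activated oocytes, so that their chromosomes were of maternal origin alone. Each origin is called a line here, whatever the number of lines sequenced. ESC-PGCLCs and pESC-PGCLCs were made from these lines by way of epiblast-like cells and then 4 days with 500 ng/ml BMP4 together with SCF, EGF and Lif, and were purified with antibodies to SSEA1 and CD61. PGCs were primordial germ cells taken from embryos. The study's methods name female embryos of an earlier and a later embryonic day, and the labels do not say from which of them these PGCs came. The replicates are described as biological, but whether they came from separate inductions or litters is not stated. With 2 replicates of each origin, the maternal origin of the chromosomes and any other difference between the lines cannot be told apart.

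The respiratory chain sits in the inner mitochondrial membrane. Complex I takes electrons from NADH and complex II takes them from succinate, complex III passes them on to cytochrome c, and complex IV hands them to oxygen. Complexes I, III and IV move protons outwards, and ATP synthase lets them return to make ATP. Mitochondrial DNA encodes a few subunits of these complexes, with the exception of complex II, and the nucleus encodes all the others. Pluripotent stem cells are known for a high rate of glycolysis, and oxidative phosphorylation is known to gain weight as primordial germ cells form.

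The 95 members comprised 7 core subunits of complex I, which carry its flavin and iron-sulfur clusters, 29 accessory subunits and 8 assembly factors of complex I, 4 subunits and 4 assembly factors of complex II, 8 subunits of complex III, 15 of complex IV and 17 genes of ATP synthase. Ndufa4 was counted with complex IV, and 3 further symbols (Cox6c2, Ndufb4c and Ndufs6b) are copies of other members. Mouse chromosome 7 held the most members (9), and 3 members (Cox7b, Ndufa1 and Ndufb11) lie on the X chromosome.

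Promoters of the members often held short motifs of factors known for respiratory genes. In the RefSeq promoter table (GRCm38.p6, 250 bases before to 50 bases after each start site), 79 of the 95 members had an entry, 2 of them under a newer symbol. The letters CGCATGCG, the core of the motif of NRF1, stood in the promoters of 11 of these 79 members (13.9%), against 2.07% of 27025 genes. The letters CCGGAAG, bound by ETS factors such as GABPA, stood in 21 (26.6%) against 9.93%, and the letters AAGATGG, the core motif of YY1, stood in 12 (15.2%) against 7.28%. Both strands were searched, the letters of the last 2 motifs overlapped in 0 members, and 1 of the 3 motifs or more was found in 37 members (46.8%) against 17.9% of genes. Mean GC content of the promoters was 58.1% in members and 53.6% in all genes. The 27025 genes were not matched to the members for expression or for promoter GC content, and the part of these in the differences was not tested. The promoters of the other members, among them Atp5a1, Atp5mpl, Cox6c, Cox6c2, Cox8c, Ndufa2, Ndufaf6, Ndufb4c, Ndufb9, Ndufs1, Ndufs6b, Sdhc, Uqcrb, Uqcrc2 and Uqcrq were not analysed here.

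The stretches of 30 bases around the motif are shown for some of the members named below that hold such a motif. They run 5′ to 3′ along the gene, with the motif in capitals. Other members named below also hold a motif and are not shown, among them Ndufa8, Ndufa9, Ndufb8, Ndufc1, Cox6a1 and Atp5k. The first line has the NRF1 letters, the next 6 have the ETS letters (on the sense strand in Ndufs3 and Sdhb and as CTTCCGG on the antisense strand in the others), and the last 2 have the YY1 letters (as CCATCTT in Cox7c).
Uqcrc1, chr9:108936668-108936697, plus strand: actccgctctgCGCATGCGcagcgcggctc
Ndufs3, chr2:90904730-90904759, minus strand: cccgcgtccgcCCGGAAGaagagtcactgc
Ndufs8, chr19:3912741-3912770, minus strand: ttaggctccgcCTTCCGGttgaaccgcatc
Sdhb, chr4:140961266-140961295, plus strand: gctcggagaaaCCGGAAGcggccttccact
Sdhd, chr9:50603877-50603906, minus strand: ccgtctcctgcCTTCCGGttcacgcttcag
Cox6b1, chr7:30626124-30626153, minus strand: tcctctcgcagCTTCCGGccagtcggaatt
Cox8a, chr19:7217603-7217632, minus strand: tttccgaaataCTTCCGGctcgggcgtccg
Ndufs7, chr10:80249462-80249491, plus strand: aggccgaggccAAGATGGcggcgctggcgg
Cox7c, chr13:86046779-86046808, minus strand: tgttgtaactcCCATCTTccctttcggtct
Of the members shown, Ndufs3, Ndufs8, Sdhb and Sdhd hold the ETS letters and were called lower in ESC-PGCLCs than in pESC-PGCLCs. Cox6b1 and Cox8a hold them too and were called lower in both inductions. These patterns overlap. Cox6b1 and Cox8a were also lower in ESC-PGCLCs than in pESC-PGCLCs, by less than 2-fold (log2 differences of 0.84 and 0.90). Sdhd was below the stem cell libraries in both kinds of PGCLC. Members not shown hold the ETS letters as well. Of these, Atp5j and Atp5l went the other way and were called lower in pESC-PGCLCs than in ESC-PGCLCs. Atp5e, Ndufaf1 and Uqcrh did not pass the F test over the 5 groups. The motifs were not tested against the changes of the members. They are matches of letters and say nothing of binding in these cells.

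Values are TPM, counts per gene length scaled to 1000000 per library, and were analysed as log2(TPM + 1), so that fold changes of low genes are understated. Log2 fold changes are given with their standard error (±). The depth recovered from the values ran from 6779838 reads in the second ESC-PGCLC library to 18572901 reads in the second ESC library. Only 3 members had fewer than 100 reads in any library (Sdhaf1 with a minimum of 2, Cox8c with 3 and Cox7b2 with 23). A count of 3 reads in a gene with 2182 nt of exons, the median, is worth 0.116 to 0.338 TPM depending on the library. This floor covers counting error only. All 95 members were among the 27259 genes tested with limma. A gene was called when its adjusted p (Benjamini-Hochberg over all genes) was under 0.05 and its change at least 2-fold. Members needed a mean of at least 1 TPM, while the genes tested needed only 0.1 TPM in 2 libraries. Shares over all genes tested therefore include genes below the limit of the members, whose fold changes are understated. No exact permutation of 2 libraries against 2 gives a two-sided p under 0.333, and the calls therefore rest on a variance pooled over groups and genes.

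The labels were checked against marker genes. Dppa3 was between 353 and 873 TPM in stem cells and between 3165 and 5681 TPM in PGCLCs and PGCs, and Dazl, a gene of later germ cells, was between 12.1 and 18.7 TPM in stem cells and between 1084 and 2095 TPM in the others. The 5 markers of later germ cells (Ddx4, Dazl, Mael, Sycp3 and Stra8) summed to 31.7 to 64.6 TPM in stem cells. Their sum was 3904 and 4066 TPM in ESC-PGCLCs, 2696 and 2490 in pESC-PGCLCs, and 3350 and 3909 in PGCs. Whether such levels match 4 days of induction was not tested. Of the 8 markers of primordial germ cells, Prdm14 did not set PGCLCs apart from stem cells. It was at 17.2 and 18.1 TPM in ESCs, 10.9 and 15.0 in pESCs, 16.7 and 18.0 in ESC-PGCLCs, 15.3 and 13.8 in pESC-PGCLCs, and 19.9 and 21.7 in PGCs. Pou5f1, which defines pluripotent cells and early germ cells, was at 19.0 to 23.5 TPM in ESCs and 7.49 to 7.8 TPM in pESCs, was listed at 0.374 and 0 TPM in ESC-PGCLCs, and was at 2.88 and 2.98 TPM in pESC-PGCLCs and 1.63 and 3.14 TPM in PGCs. Of the 7 markers of pluripotent stem cells, Sox2 went the other way in ESC-PGCLCs, at 97.3 and 110 TPM against 32.7 and 44.6 TPM in ESCs, 35.9 and 62.4 in pESCs, 23.9 and 29.7 in pESC-PGCLCs, and 83.4 and 75.1 in PGCs. Their sum was 621 to 1011 TPM in stem cells and 134 to 220 TPM in the other groups. The 6 blood cell markers, mostly haemoglobin genes, summed to at most 4.28 TPM in stem cells, 473 and 538 TPM in ESC-PGCLCs, 2801 and 3320 TPM in pESC-PGCLCs and 1906 and 2068 TPM in PGCs, with Ptprc under 0.11 TPM in every library. The 7 markers of gonadal somatic cells summed to 7.06 to 9.22 TPM in stem cells, 23.4 and 28.3 TPM in ESC-PGCLCs, 46.2 and 53.3 TPM in pESC-PGCLCs and 94.4 and 113 TPM in PGCs, and the 7 fibroblast markers to at most 10.9 TPM in any library. The part of other cells in the results below was not tested. In such bulk samples, fewer cells of a type and less RNA per cell cannot be told apart.

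Members together made up 4.79% and 5.12% of all TPM in ESCs, 5.49% and 5.76% in pESCs, 6.21% and 6.77% in ESC-PGCLCs, 5.17% and 4.68% in pESC-PGCLCs and 4.00% and 4.94% in PGCs. The share was thus highest in ESC-PGCLCs, without overlap with any other group. The 5 members of highest mean level (Cox7c, Uqcrb, Ndufa1, Cox7a2 and Uqcr10) made up 38.2% and 40.6% of the members' TPM in ESC-PGCLCs and 22.1% to 28.4% in the other 8 libraries. TPM divides by the length of all annotated exons of a gene, so levels of different members are comparable only per that length, which ranged from 231 to 8086 nt.

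**Figure D1:**
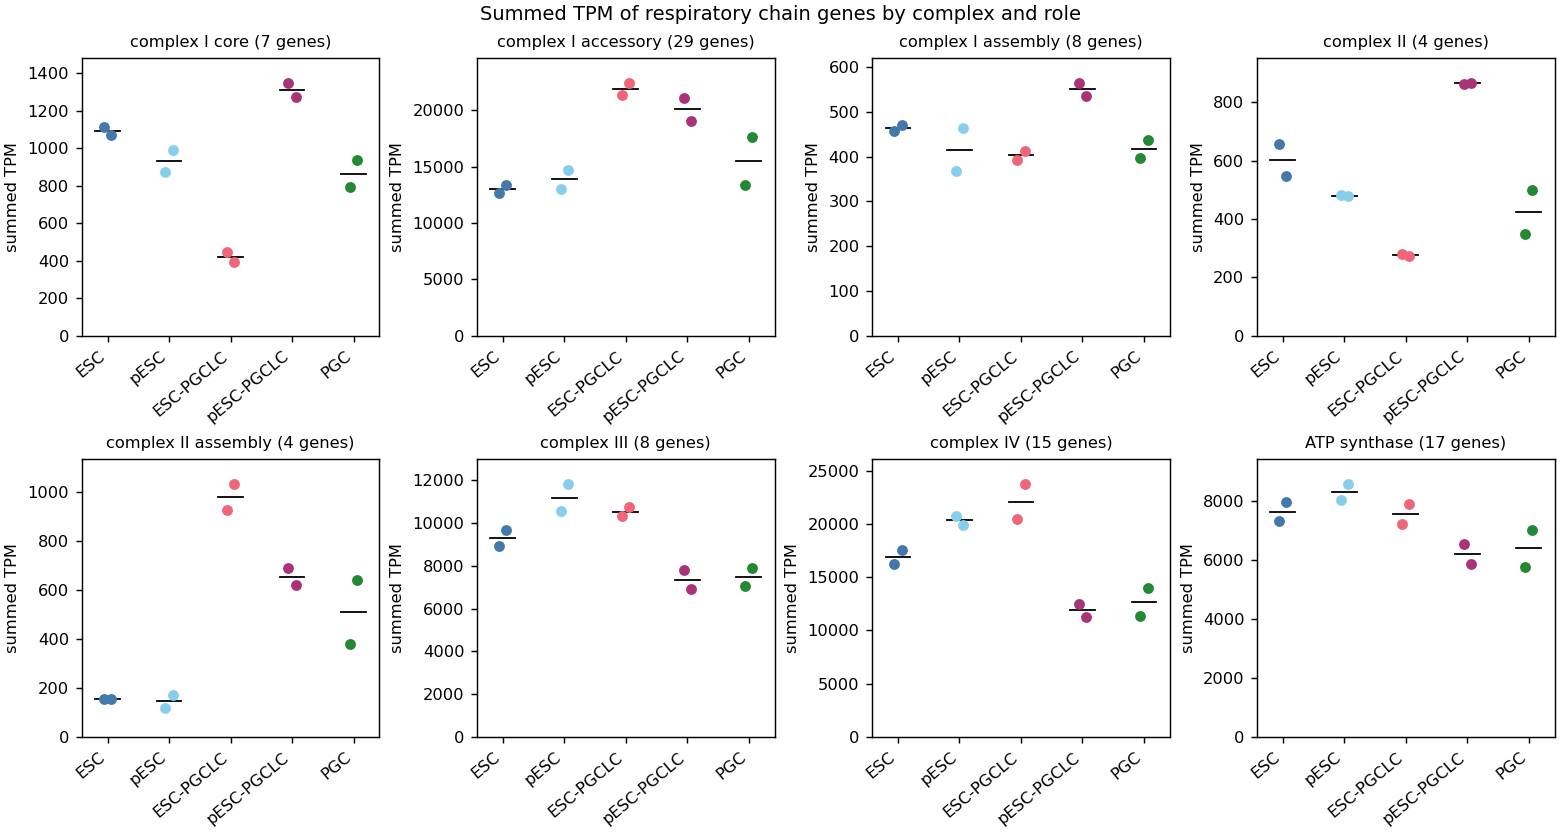
Summed TPM (vertical axes, from 0) of the members of each complex and role in the 2 libraries of each group (points) with their mean (line). The sum of the 7 core subunits of complex I was lowest in ESC-PGCLCs (445 and 396 TPM) and highest in pESC-PGCLCs (1346 and 1274 TPM), while the sum of the 29 accessory subunits was high in both.

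Levels differed between the groups for most members, and the complexes did not move as units. In limma's F test over the 5 groups, 80 of 95 members passed (adjusted p under 0.05), where 62.5% of all genes tested did. By their group means, 27 members were highest in pESC-PGCLCs and 26 in ESC-PGCLCs, while 38 were lowest in ESC-PGCLCs, more than in any other group, and 3 were highest in PGCs. The members of the widest range of group means were Cox7b2, a form of a complex IV subunit known from testis (4.26 on the log2 scale), Uqcrc1, a core subunit of complex III (4.08), and Cox8c, another testis form (3.45). The narrowest ranges were those of Cox5b of complex IV (0.35), Atp5g3, which encodes the c subunit of the ATP synthase rotor (0.38), and Uqcrq of complex III (0.40), none of which passed the F test.

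**Figure D2:**
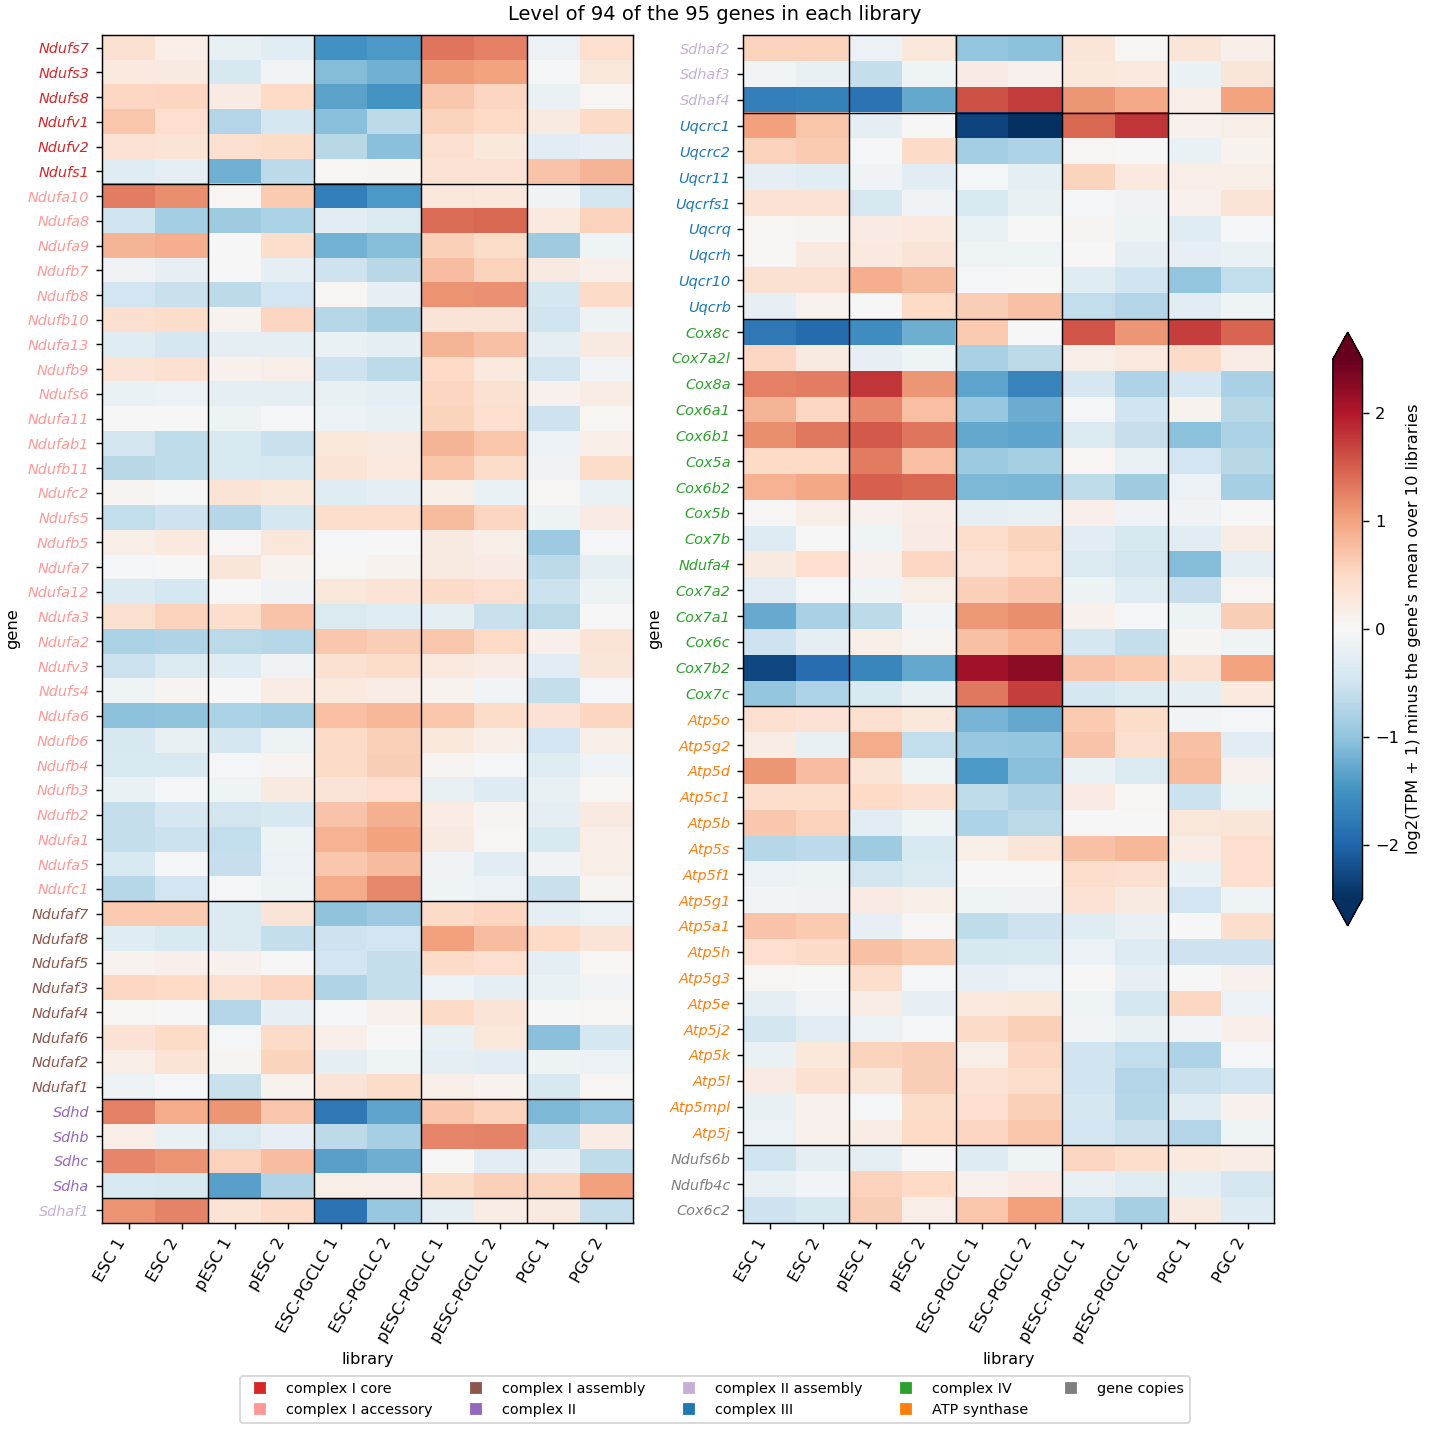
Heat map of log2(TPM + 1) minus the mean of the gene over the 10 libraries, for 94 of the 95 members (rows, label colors by complex and role) in each library (columns). Within complex I, most core subunits were low (blue) in ESC-PGCLCs and high (red) in pESC-PGCLCs, while Ndufa2 and Ndufa6 were high in both, and Cox6b1, Cox6b2 and Cox8a were low in PGCLCs and PGCs.

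Between the stem cell lines, few members were called. In pESCs against ESCs, 0 of 95 members were called higher and 1 lower, where 0.165% of all genes were called higher and 0.616% lower. Without adjustment for multiple testing, limma gave p under 0.05 for 10 members that were higher and 18 that were lower, and a count model on the recovered reads (voom with limma) called 0 higher and 1 lower. The member called was Ndufv1, the subunit of complex I that binds NADH and flavin, at 65.0 and 53.5 TPM in ESCs and 23.5 and 29.0 TPM in pESCs (log2 fold change -1.15 ± 0.19, adjusted p = 0.043). Its call was lost under quantile normalization, median centring and the removal of most single libraries, and 5 members were called lower without pESC replicate 2. The median log2 fold change was 0.063 over members (0.0039 without pESC replicate 2 and 0.016 without ESC replicate 1) and -0.058 over all genes.

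From ESCs to ESC-PGCLCs, members were called in both directions. Core subunits of complex I such as Ndufs7 and Ndufs8 fell, while members such as Cox7c and Cox7b2 rose. In ESC-PGCLCs against ESCs, 13 members were called higher and 28 lower, where 15.3% and 14.5% of all genes were. As shares of the members these are 13.7%, near that of all genes tested, and 29.5%. Among the 17694 genes with at least 1 TPM in 2 libraries, a set nearer to the members in level, 4163 were called higher and 3975 lower. In that fit the members stayed at 13 and 28. Both calls were a larger part of that set than of all genes tested. Higher calls were also a larger part of it than of the members, and lower calls a smaller part. The median log2 fold change was -0.059 over members (-0.037 without ESC-PGCLC replicate 2) and 0.049 over all genes. Of 7 core subunits of complex I, 6 fell, and of 4 subunits of complex II, 2 fell, with 0 called higher in either. Of the core subunits, 4 were called lower after quantile normalization and 2 with GC and length adjusted, where their median went from -1.37 to -1.06 and -0.75. Of 29 accessory subunits of complex I, 6 rose (Ndufa1, Ndufa2, Ndufa6, Ndufb2, Ndufc1 and Ndufs5) and 3 fell (Ndufa9, Ndufa10 and Ndufb10), and of 15 complex IV genes, 5 rose and 6 fell. Both core subunits of complex III, Uqcrc1 and Uqcrc2, fell, as did 5 ATP synthase genes (Atp5a1, Atp5b, Atp5c1, Atp5d and Atp5o). The latter 5 encode parts of the catalytic head or of the stalks attached to it. The split moved with the scaling and was 19 higher and 21 lower after quantile normalization, and 19 and 18 with adjustment for GC content and exon length.

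From pESCs to pESC-PGCLCs, members were also called in both directions, and which direction had more calls depended on the scaling. In pESC-PGCLCs against pESCs, 19 members were called higher and 9 lower, where 20.8% and 6.8% of all genes were. As shares of the members these are 20% and 9.47%, and that of the higher ones is near that of all genes tested. Among the 17694 genes with at least 1 TPM in 2 libraries, 5721 were called higher and 1874 lower, with the members still at 19 and 9. Both calls were a larger part of that set than of all genes tested, and also a larger part of it than of the members. The median log2 fold change was 0.13 over members and 0.22 over all genes. The former was 0.024 without pESC replicate 1, 0.22 without pESC replicate 2, 0.065 without pESC-PGCLC replicate 1 and 0.20 without pESC-PGCLC replicate 2. Of 7 core subunits of complex I, 4 rose (Ndufs1, Ndufs3, Ndufs7 and Ndufv1), as did 7 of 29 accessory subunits and 2 of 4 subunits of complex II (Sdha and Sdhb), with 0 called lower in each. Of 15 complex IV genes, 2 rose and 5 fell. Median centring of the libraries over 9024 genes shifted the median of all genes from 0.22 to -0.51. The split of members went from 19 higher and 9 lower to 5 and 29, voom gave 13 and 17, and adjustment for GC and length 12 and 19. After median centring 0 of 7 core subunits of complex I were called higher, with a median log2 fold change of 0.38 against 1.12 before. Quantile normalization and adjustment for GC and length called 1 each, and voom 2. Of 67 called changes of the members named by rule, over all comparisons, 0 reversed their sign under any setting. They were chosen as the largest called changes, so a reversal was unlikely from the start and this count is no test of stability.

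The change over differentiation differed between the lines for 41 members. In the interaction of origin and differentiation, which takes the change in the ESC line from that in the pESC line, 28 members were higher and 13 lower, where 15.5% and 3.53% of all genes were. The 28 and 13 are 29.5% and 13.7% of the members. Among the 17694 genes with at least 1 TPM in 2 libraries, 4461 were called higher and 1033 lower, with 29 and 14 members. Both calls were a larger part of that set than of all genes tested, which brings the set nearer to the members, most of all for the higher calls. The median interaction was 0.32 on the log2 scale over members and 0.21 over all genes tested. Of 7 core subunits of complex I, 6 were called higher, with a median of 2.20. The count was 5 of 7, with medians of 1.12 to 1.98, after quantile normalization, after median centring, by voom and with GC and length adjusted. For members as a whole the split did move, to 14 higher and 28 lower after median centring, 12 and 27 with GC and length adjusted, and 22 and 21 by voom. In complex II, 3 of 4 subunits were called higher, and in complex IV, 1 gene (Cox7a2l) was called higher and 5 lower. The 2 inductions shared 6 members that rose in both (Cox7b2, Cox8c, Ndufa2, Ndufa6, Ndufs5 and Sdhaf4) and 5 that fell in both (Cox5a, Cox6a1, Cox6b1, Cox6b2 and Cox8a). Another 4 members (Ndufs3, Ndufs7, Ndufv1 and Uqcrc1) fell in ESC-PGCLCs and rose in pESC-PGCLCs, and Cox6c2 did the opposite.

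**Figure D3:**
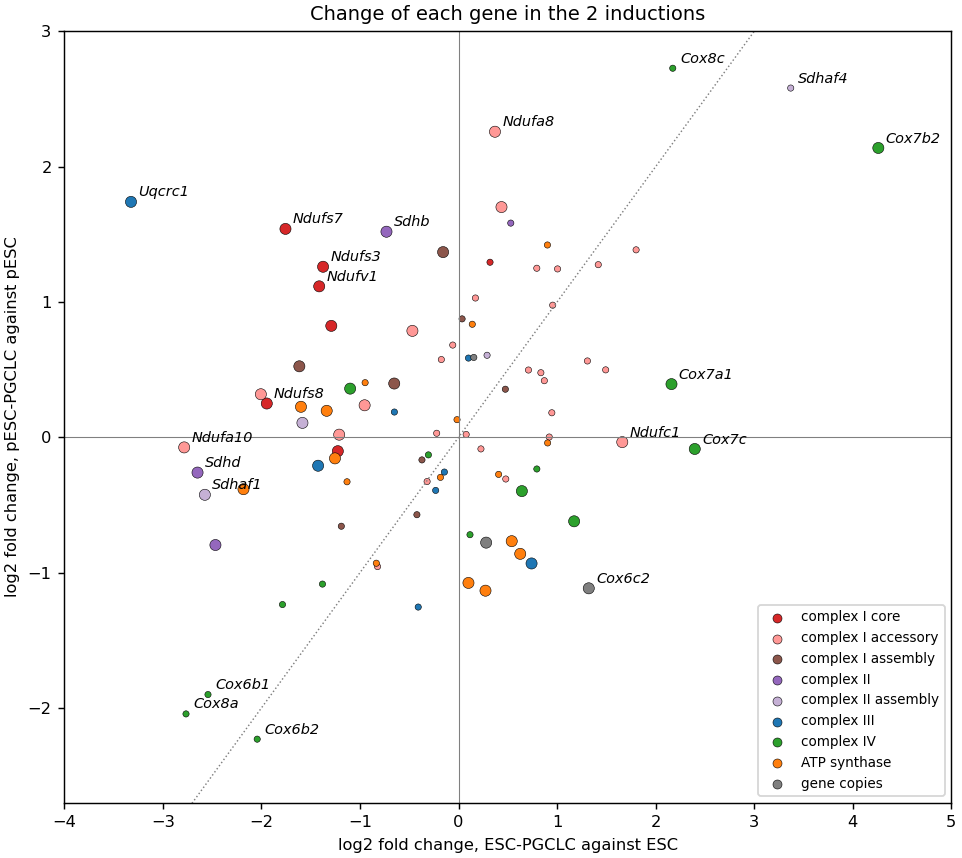
Log2 fold change of each member in ESC-PGCLCs against ESCs (horizontal axis) and in pESC-PGCLCs against pESCs (vertical axis), colored by complex and role. Large points passed the test of the interaction and the dotted line marks equal change; Uqcrc1 (-3.32 and 1.74) and Ndufs7 (-1.76 and 1.54) lie far above the line and Cox7c (2.40 and -0.09) far below it.

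The core subunits of complex I carry the path of electrons from NADH to ubiquinone. Ndufs7, which holds the last iron-sulfur cluster of that path, was at 145 and 126 TPM in ESCs, 97.9 and 91.2 in pESCs, 38.4 and 40.3 in ESC-PGCLCs, 284 and 269 in pESC-PGCLCs, and 101 and 149.7 in PGCs. It was lowest in both ESC-PGCLC libraries and highest in both pESC-PGCLC libraries, without overlap with any other group. Its log2 fold change was -1.76 ± 0.19, adjusted p = 1.7e-04, in ESC-PGCLCs against ESCs and 1.54 ± 0.19, adjusted p = 4.1e-04, in pESC-PGCLCs against pESCs. The interaction was 3.30 ± 0.27, adjusted p = 3.8e-04.

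Ndufs3 and Ndufs8 had the same low point. Ndufs3, a subunit of the arm that reaches into the matrix, was at 80.1 and 78.9 TPM in ESCs, 51.0 and 64.9 in pESCs, 31.4 and 28.8 in ESC-PGCLCs, 142 and 137 in pESC-PGCLCs, and 66.5 and 82.1 in PGCs. Ndufs8, which carries further iron-sulfur clusters, was at 254 and 255 TPM in ESCs, 204 and 249 in pESCs, 69.0 and 62.0 in ESC-PGCLCs, 281 and 256 in pESC-PGCLCs, and 157 and 182 in PGCs. Both were lowest in ESC-PGCLCs and highest in pESC-PGCLCs, for Ndufs8 by a narrow margin over ESCs. The interaction was 2.63 ± 0.23, adjusted p = 4.3e-04, for Ndufs3 and 2.20 ± 0.21, adjusted p = 5.9e-04, for Ndufs8.

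Ndufv1 was at 65.0 and 53.5 TPM in ESCs, 23.5 and 29.0 in pESCs, 18.7 and 24.8 in ESC-PGCLCs, 58.7 and 56.7 in pESC-PGCLCs, and 46.7 and 56.0 in PGCs. It was high in ESCs, pESC-PGCLCs and PGCs and low in pESCs and ESC-PGCLCs, which did overlap, and its interaction was 2.53 ± 0.27, adjusted p = 7.9e-04. Ndufv2, its partner in the NADH-binding module, was at 429.7 and 424 TPM in ESCs, 439 and 462 in pESCs, 205 and 162 in ESC-PGCLCs, 440.0 and 399 in pESC-PGCLCs, and 274 and 289 in PGCs. This was the core subunit of highest level per exon length, and it was lowest in ESC-PGCLCs (log2 fold change against ESCs -1.22 ± 0.15, adjusted p = 2.9e-04). Ndufs1, the largest core subunit, was the exception, at 29.0 and 30.7 TPM in ESCs, 15.1 and 22.4 in pESCs, 37.0 and 37.9 in ESC-PGCLCs, 46.4 and 46.7 in pESC-PGCLCs, and 59.8 and 65.99 in PGCs. It was higher in PGCLCs and PGCs than in stem cells and was called in pESC-PGCLCs against pESCs (1.29 ± 0.18, adjusted p = 7.5e-04) but not in ESC-PGCLCs against ESCs (0.32 ± 0.18, adjusted p = 0.2). The interaction was 0.97 ± 0.26, adjusted p = 0.03.

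The summed TPM of the core subunits was 1116 and 1068 TPM in ESCs, 876 and 989 in pESCs, 445 and 396 in ESC-PGCLCs, 1346 and 1274 in pESC-PGCLCs, and 795 and 934 in PGCs. That of the accessory subunits was 12660.3 and 13373 TPM in ESCs, 13057 and 14672 in pESCs, 21335 and 22391 in ESC-PGCLCs, 21070.2 and 19089 in pESC-PGCLCs, and 13380.2 and 17595 in PGCs. The first as a percentage of the second was 8.81% and 7.99% in ESCs, 6.71% and 6.74% in pESCs, 2.08% and 1.77% in ESC-PGCLCs, 6.39% and 6.67% in pESC-PGCLCs, and 5.94% and 5.31% in PGCs. The ratio in ESC-PGCLCs was thus under that of all other libraries.

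Accessory subunits surround the core of complex I and are needed for its assembly or stability. Ndufa1, a small membrane subunit and the most abundant of them per exon length, was at 1649 and 1706 TPM in ESCs, 1615 and 2257 in pESCs, 4505 and 4948 in ESC-PGCLCs, 2879 and 2527 in pESC-PGCLCs, and 1889 and 2760.1 in PGCs. It was highest in ESC-PGCLCs (log2 fold change against ESCs 1.49 ± 0.24, adjusted p = 0.0012). Ndufa6 was at 220.4 and 223 TPM in ESCs, 259.7 and 249.9 in pESCs, 757 and 792 in ESC-PGCLCs, 720.5 and 618 in pESC-PGCLCs, and 578 and 648 in PGCs. It was higher in every PGCLC and PGC library than in every stem cell library. The log2 fold change was 1.80 ± 0.14, adjusted p = 2.8e-05, in the ESC line and 1.38 ± 0.14, adjusted p = 1.3e-04, in the pESC line.

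Other accessory subunits differed between the PGCLCs. Ndufa10 was at 123 and 113 TPM in ESCs, 52.2 and 79.0 in pESCs, 14.7 and 17.9 in ESC-PGCLCs, 61.3 and 60.5 in pESC-PGCLCs, and 47.1 and 36.0 in PGCs. It was highest in ESCs and lowest in ESC-PGCLCs, without overlap with other groups, and its interaction was 2.71 ± 0.31, adjusted p = 0.001. Ndufa8 was at 207 and 162 TPM in ESCs, 157 and 169.8 in pESCs, 245 and 228 in ESC-PGCLCs, 770.2 and 801 in pESC-PGCLCs, and 349 and 441 in PGCs. It was highest in pESC-PGCLCs, and PGCs lay between these and the others (log2 fold change of pESC-PGCLCs against pESCs 2.26 ± 0.17, adjusted p = 4.4e-05). Ndufc1, a small membrane subunit, was at 409 and 483 TPM in ESCs, 648 and 618 in pESCs, 1282 and 1545 in ESC-PGCLCs, 625 and 609.8 in pESC-PGCLCs, and 461 and 709 in PGCs. The ESC-PGCLC libraries stood above all others (interaction -1.70 ± 0.31, adjusted p = 0.0065).

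Ndufb8 and Ndufa9 set pESC-PGCLCs apart from PGCs. Ndufb8 was at 256 and 244 TPM in ESCs, 228 and 256 in pESCs, 368 and 312 in ESC-PGCLCs, 781 and 795 in pESC-PGCLCs, and 262 and 499 in PGCs, with both pESC-PGCLC libraries above all others. Ndufa9 was at 250.5 and 261 TPM in ESCs, 136 and 187 in pESCs, 60.3 and 65.5 in ESC-PGCLCs, 208 and 191 in pESC-PGCLCs, and 74.1 and 127 in PGCs, with ESC-PGCLCs and PGCs below all others. In PGCs against pESC-PGCLCs the log2 fold change was -1.12 ± 0.27, adjusted p = 0.046, for Ndufb8 and -1.03 ± 0.26, adjusted p = 0.048, for Ndufa9.

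Of the 8 complex I assembly factors, 2 fell in ESC-PGCLCs (Ndufaf3 and Ndufaf7), 1 rose in pESC-PGCLCs (Ndufaf8) and 3 were higher in the interaction (Ndufaf5, Ndufaf7 and Ndufaf8). Ndufaf1, the most abundant of them, was at 102 and 108 TPM in ESCs, 74.9 and 119 in pESCs, 140.1 and 153 in ESC-PGCLCs, 123 and 119 in pESC-PGCLCs, and 84.0 and 113 in PGCs. ESC-PGCLCs stood above the others, which overlapped, and it was called in none of the 7 comparisons (smallest adjusted p 0.094 by limma).

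Complex II, succinate dehydrogenase, belongs to the TCA cycle as well as to the respiratory chain. Sdhb, its iron-sulfur subunit, was at 274 and 219 TPM in ESCs, 191 and 212 in pESCs, 156 and 138 in ESC-PGCLCs, 574 and 581 in pESC-PGCLCs, and 161 and 277 in PGCs. Sdhd, a membrane anchor, was at 217 and 171 TPM in ESCs, 193 and 143 in pESCs, 25.3 and 35.3 in ESC-PGCLCs, 143 and 134 in pESC-PGCLCs, and 40.9 and 44.8 in PGCs. For Sdhb the pESC-PGCLC libraries stood far above all others, whereas Sdhd was low in ESC-PGCLCs and PGCs and, in pESC-PGCLCs, lay just below the lowest stem cell library. In pESC-PGCLCs against ESC-PGCLCs the log2 fold change was 1.97 ± 0.25, adjusted p = 0.0012, for Sdhb and 2.18 ± 0.21, adjusted p = 4.5e-04, for Sdhd. In PGCs against pESC-PGCLCs it was -1.45 ± 0.25, adjusted p = 0.023, and -1.67 ± 0.21, adjusted p = 0.013.

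Sdha, the flavin subunit, was at 55.4 and 54.4 TPM in ESCs, 27.5 and 42.9 in pESCs, 80.2 and 79.2 in ESC-PGCLCs, 99.7 and 110.4 in pESC-PGCLCs, and 107 and 149 in PGCs. Sdhc, the other anchor, was at 109 and 103 TPM in ESCs, 69.1 and 79.3 in pESCs, 17.4 and 19.3 in ESC-PGCLCs, 46.5 and 38.4 in pESC-PGCLCs, and 40.1 and 29.5 in PGCs. Sdha was higher in PGCLCs and PGCs than in stem cells without overlap, while Sdhc was lower in all of them, so that subunits of the same complex did not move together. Sdha was called in pESC-PGCLCs against pESCs (1.58 ± 0.23, adjusted p = 8.8e-04), and Sdhc in ESC-PGCLCs against ESCs (-2.47 ± 0.18, adjusted p = 2.5e-05).

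Sdhaf4, an assembly factor that binds the flavin-loaded Sdha, was at 91.0 and 91.3 TPM in ESCs, 82.0 and 123 in pESCs, 901 and 1006 in ESC-PGCLCs, 637 and 574 in pESC-PGCLCs, and 328 and 596 in PGCs. The stem cell libraries lay below all others. Log2 fold changes were 3.37 ± 0.29, adjusted p = 5.1e-05, in the ESC line and 2.58 ± 0.29, adjusted p = 2.5e-04, in the pESC line. Sdhaf1, which helps Sdhb to receive its iron-sulfur clusters, was at 8.15 and 8.89 TPM in ESCs, 4.34 and 4.82 in pESCs, 0.169 and 1.18 in ESC-PGCLCs, 2.59 and 3.8 in pESC-PGCLCs, and 3.9 and 1.78 in PGCs. It was lowest in ESC-PGCLCs, where its values rest on few reads (log2 fold change against ESCs -2.57 ± 0.36, adjusted p = 6.2e-04).

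In complex III, Uqcrc1 had the largest interaction of all members. This core subunit (chr9:108936633-108949623 in GRCm38) was at 146 and 116 TPM in ESCs, 60.2 and 70.9 in pESCs, 13.6 and 10.8 in ESC-PGCLCs, 195 and 249.8 in pESC-PGCLCs, and 76.8 and 79.3 in PGCs. The ESC-PGCLC libraries were lowest and the pESC-PGCLC libraries highest, without overlap with any other group. Its log2 fold change was -3.32 ± 0.19, adjusted p = 8.7e-06, in the ESC line and 1.74 ± 0.19, adjusted p = 2.3e-04, in the pESC line. The interaction was 5.06 ± 0.27, adjusted p = 3.0e-04, and the difference was 4.08 ± 0.19, adjusted p = 9.0e-05, in pESC-PGCLCs against ESC-PGCLCs.

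Its partner Uqcrc2 was at 320.5 and 341 TPM in ESCs, 209 and 301 in pESCs, 118 and 127 in ESC-PGCLCs, 219 and 216 in pESC-PGCLCs, and 193 and 231 in PGCs. Uqcrc1 made up 31.3% and 25.4% of the TPM of the pair in ESCs, 10.3% and 7.83% in ESC-PGCLCs, and 47.1% and 53.7% in pESC-PGCLCs. Uqcrb, a small subunit at the ubiquinone site and the most abundant complex III gene per exon length, was at 3236 and 3929 TPM in ESCs, 3729.9 and 5253 in pESCs, 5729 and 6196 in ESC-PGCLCs, 2415 and 2227 in pESC-PGCLCs, and 3056 and 3465 in PGCs. It was highest in ESC-PGCLCs and lowest in pESC-PGCLCs (-1.36 ± 0.21, adjusted p = 0.003, in the latter against the former). Uqcr10, another small subunit, was at 2641 and 2638 TPM in ESCs, 3817 and 3502 in pESCs, 1946 and 2029.9 in ESC-PGCLCs, 1637 and 1434 in pESC-PGCLCs, and 1016 and 1325 in PGCs. It was higher in every stem cell library than elsewhere and was called lower in pESC-PGCLCs against pESCs (-1.25 ± 0.17, adjusted p = 7.1e-04).

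Complex IV is the complex whose subunits come in tissue forms, and several of these changed in germ cells. Cox7b2, a testis form of Cox7b, was at 4.61 and 6.21 TPM in ESCs, 7.77 and 10.2 in pESCs, 116 and 126 in ESC-PGCLCs, 43.3 and 42.0 in pESC-PGCLCs, and 34.4 and 53.1 in PGCs. It was higher in every PGCLC and PGC library than in stem cells, and highest in ESC-PGCLCs. The log2 fold change was 4.26 ± 0.23, adjusted p = 6.9e-06, in the ESC line and 2.14 ± 0.23, adjusted p = 2.2e-04, in the pESC line, with an interaction of -2.12 ± 0.33, adjusted p = 0.0033. Its share of the TPM of Cox7b2 and Cox7b was at most 0.523% in stem cells, 4.84% and 4.88% in ESC-PGCLCs, 3.05% and 3.2% in pESC-PGCLCs, and 2.41% and 2.72% in PGCs, where Cox7b remained the main form at 1270.2 TPM or more.

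Cox8c, a testis form of Cox8a, was at 0.711 and 0.551 TPM in ESCs, 0.994 and 1.51 in pESCs, 8.26 and 4.83 in ESC-PGCLCs, 16.4 and 11.6 in pESC-PGCLCs, and 18.5 and 15.2 in PGCs. Cox8a itself was at 1914 and 1932 TPM in ESCs, 2742 and 1718 in pESCs, 318 and 250.2 in ESC-PGCLCs, 594 and 465 in pESC-PGCLCs, and 597 and 456 in PGCs. Cox8c was higher and Cox8a lower in all PGCLC and PGC libraries than in all stem cell libraries. For Cox8c the log2 fold changes were 2.17 ± 0.27, adjusted p = 3.5e-04, in the ESC line and 2.73 ± 0.27, adjusted p = 1.4e-04, in the pESC line. For Cox8a they were -2.77 ± 0.26, adjusted p = 8.3e-05, and -2.04 ± 0.26, adjusted p = 4.8e-04. Even so Cox8a remained the main form, with Cox8c at 1.89% to 3.23% of the TPM of the pair in PGCLCs and PGCs and at most 0.0879% in stem cells. Cox8b, the form of heart and skeletal muscle, was listed at 0 in all 10 libraries.

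Cox6b1, the common form of a subunit that faces the intermembrane space, was at 3058 and 3405 TPM in ESCs, 3964 and 3472 in pESCs, 560.0 and 547 in ESC-PGCLCs, 1068 and 923 in pESC-PGCLCs, and 672 and 792 in PGCs. Cox6b2, its testis form, was at 117 and 126 TPM in ESCs, 182 and 173 in pESCs, 28.8 and 28.4 in ESC-PGCLCs, 40.5 and 33.8 in pESC-PGCLCs, and 57.4 and 35.5 in PGCs. Unlike the other testis forms, Cox6b2 was lower in PGCLCs and PGCs, and both genes fell in both lines (-2.54 and -1.90 for Cox6b1, -2.04 and -2.23 for Cox6b2). Cox6a1, the form found in most tissues, was at 2202 and 1766 TPM in ESCs, 2818 and 2073 in pESCs, 633 and 515 in ESC-PGCLCs, 1205 and 873 in pESC-PGCLCs, and 1301 and 756 in PGCs. It fell in both lines (-1.79 and -1.24), while Cox6a2, the muscle form, was under 1 TPM in every library.

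Cox7c, a small subunit, had the highest mean TPM of all members, at 1661 and 1912 TPM in ESCs, 2494 and 2867 in pESCs, 8166 and 10787 in ESC-PGCLCs, 2457 and 2581 in pESC-PGCLCs, and 2809.8 and 3891 in PGCs. ESC-PGCLCs stood above all other libraries. The log2 fold change was 2.40 ± 0.22, adjusted p = 7.6e-05, in ESC-PGCLCs against ESCs and -0.09 ± 0.22, adjusted p = 0.8, in pESC-PGCLCs against pESCs. It was -1.505 ± 0.22, adjusted p = 0.0033, in PGCs against ESC-PGCLCs. In its exons, 16.2% of windows of 100 bases are shared with other genes, so its level is uncertain.

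Cox7a1, the form of heart and skeletal muscle, was at 218 and 294 TPM in ESCs, 329.7 and 493 in pESCs, 1104 and 1166 in ESC-PGCLCs, 558 and 502 in pESC-PGCLCs, and 478 and 799 in PGCs. Cox7a2, the common form, was at 1824 and 2144 TPM in ESCs, 2041 and 2451 in pESCs, 3332 and 3530.3 in ESC-PGCLCs, 2016 and 1793 in pESC-PGCLCs, and 1492 and 2277 in PGCs. Both were highest in ESC-PGCLCs, and Cox7a1 rose there (2.16 ± 0.29, adjusted p = 5.0e-04) but was not called in the pESC line (0.39 ± 0.29, adjusted p = 0.32), with an interaction of -1.77 ± 0.41, adjusted p = 0.018. Its share of the TPM of the pair was 10.7% to 16.7% in stem cells and 21.7% to 25.97% in the others.

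Cox6c was at 434 and 523 TPM in ESCs, 686 and 649 in pESCs, 1028 and 1124 in ESC-PGCLCs, 461 and 408 in pESC-PGCLCs, and 648 and 577 in PGCs. Cox6c2, a copy of it, was at 229.8 and 249 TPM in ESCs, 506 and 369 in pESCs, 535 and 670.1 in ESC-PGCLCs, 215 and 184 in pESC-PGCLCs, and 388 and 264 in PGCs. Both were highest in ESC-PGCLCs, with interactions of -1.79 ± 0.22, adjusted p = 0.0012, for Cox6c and -2.44 ± 0.34, adjusted p = 0.002, for Cox6c2. However, 34.8% of the 100-base windows of Cox6c2 are shared with other genes, chiefly Cox6c, so reads of the pair could be assigned to either. Ndufa4, a subunit known to associate with complex IV, was at 1858 and 2117 TPM in ESCs, 1711 and 2287 in pESCs, 2049 and 2255 in ESC-PGCLCs, 1244 and 1159 in pESC-PGCLCs, and 747 and 1351 in PGCs. It was called in PGCs against ESC-PGCLCs (-1.10 ± 0.28, adjusted p = 0.022).

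**Figure D4:**
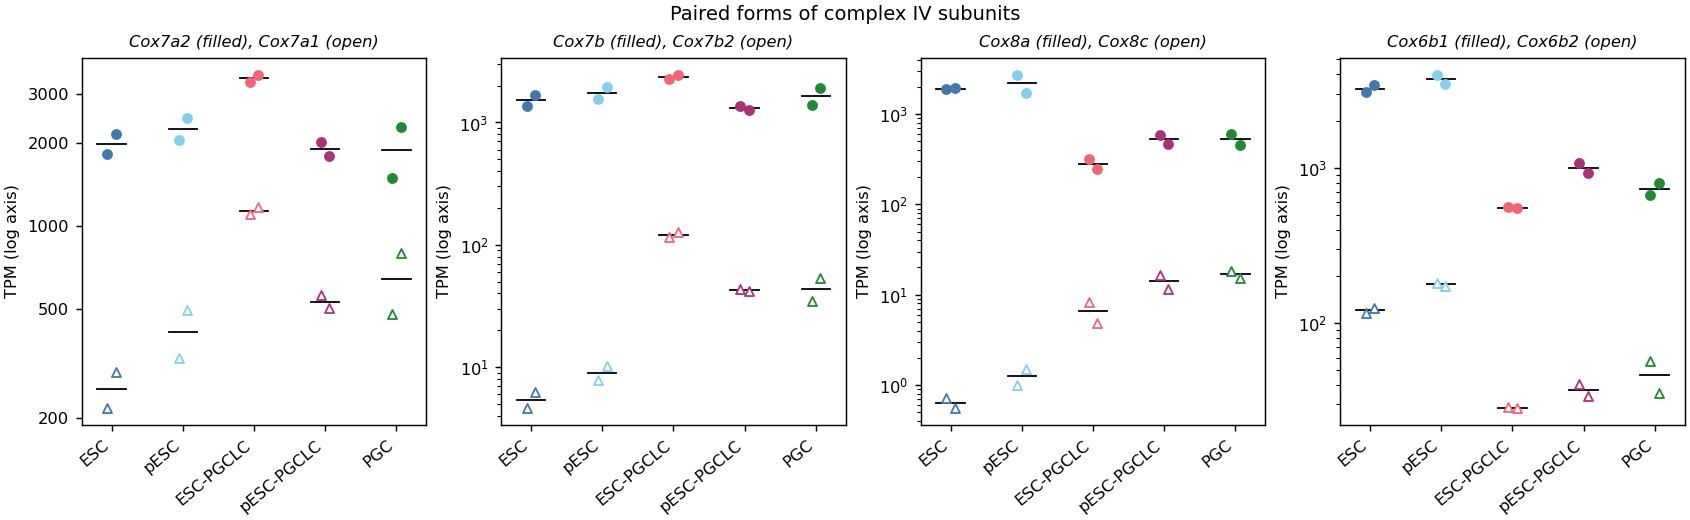
TPM (vertical axes, log scale) of paired forms of the complex IV subunits Cox7a, Cox7b, Cox8 and Cox6b in the 2 libraries of each group (horizontal axes), with filled circles for the common form, open triangles for the other form and lines for the mean. Cox7b2 and Cox8c lie higher in PGCLCs and PGCs than in stem cells, but below Cox7b and Cox8a in every library.

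ATP synthase couples the return of protons to the making of ATP. The summed TPM of its 17 genes was 7320.2 and 7984 TPM in ESCs, 8044 and 8577 in pESCs, 7216 and 7909.5 in ESC-PGCLCs, 6535 and 5884 in pESC-PGCLCs, and 5765 and 7039 in PGCs. In ESC-PGCLCs against ESCs 5 fell and 0 rose, in pESC-PGCLCs against pESCs 1 rose (Atp5s) and 2 fell (Atp5k and Atp5l), and in the interaction 4 were higher and 4 lower. Atp5d, the delta subunit of the catalytic head's central stalk, was at 75.7 and 59.5 TPM in ESCs, 44.3 and 32.2 in pESCs, 12.1 and 16.2 in ESC-PGCLCs, 30.9 and 26.7 in pESC-PGCLCs, and 60.8 and 37.2 in PGCs. It was lowest in ESC-PGCLCs, and was called there against ESCs (-2.18 ± 0.28, adjusted p = 3.7e-04) and in PGCs against ESC-PGCLCs (1.70 ± 0.28, adjusted p = 0.0044).

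Atp5o, a part of the outer stalk, was at 418 and 408 TPM in ESCs, 419 and 379 in pESCs, 142 and 129.9 in ESC-PGCLCs, 499.7 and 435 in pESC-PGCLCs, and 302 and 310.1 in PGCs. ESC-PGCLCs lay below all other libraries (interaction 1.82 ± 0.19, adjusted p = 6.9e-04). Atp5mpl, a small membrane subunit and the most abundant gene of this group per exon length, was at 1063 and 1311 TPM in ESCs, 1165 and 1675 in pESCs, 1613 and 1826 in ESC-PGCLCs, 912 and 737 in pESC-PGCLCs, and 979.9 and 1307 in PGCs. It was lower in the interaction (-1.31 ± 0.34, adjusted p = 0.029). Atp5k, another small subunit, was at 667 and 895 TPM in ESCs, 1087 and 1133 in pESCs, 821 and 1061 in ESC-PGCLCs, 529 and 483 in pESC-PGCLCs, and 433 and 725 in PGCs. It fell in the pESC line (-1.13 ± 0.27, adjusted p = 0.0094) but was not called in the ESC line (0.27 ± 0.27, adjusted p = 0.45), with an interaction of -1.41 ± 0.38, adjusted p = 0.032. The 3 genes of the c subunit that forms the rotor ring, Atp5g1, Atp5g2 and Atp5g3, were called in none of the 7 comparisons, and Atpif1, the inhibitor of the enzyme, which the symbol rule does not take, was between 881 and 1426 TPM.

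The comparison of the PGCLCs with each other and with PGCs shares libraries with those above, so each gives its own values and no independent support. In pESC-PGCLCs against ESC-PGCLCs, 22 members were called higher and 10 lower, where 10.3% and 3.08% of all genes were. The 22 and 10 are 23.2% and 10.5% of the members. Among the 17694 genes with at least 1 TPM in 2 libraries, 2895 were called higher and 881 lower, with 23 and 10 members. Both calls were a larger part of that set than of all genes tested, which brings the set nearer to the members. The medians were 0.32 over members and 0.12 over all genes. Of 7 core subunits of complex I, 6 were higher, and of 4 subunits of complex II, 3. The 10 lower members were Cox7c, Uqcrb, Cox6c, Cox6c2, Cox7a1, Cox7b2, Ndufc1 and the ATP synthase genes Atp5j, Atp5l and Atp5mpl. After median centring the split was 11 higher and 20 lower, with GC and length adjusted it was 11 and 16, and in these settings 3 of 7 core subunits were called higher. The summed blood cell markers were also higher in pESC-PGCLCs (2801 and 3320 TPM) than in ESC-PGCLCs (473 and 538 TPM), and their part in this comparison was not tested.

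In PGCs against ESC-PGCLCs, 14 members were called higher and 7 lower, where 12% and 1.88% of all genes were. The 14 and 7 are 14.7% and 7.37% of the members. Among the 17694 genes with at least 1 TPM in 2 libraries, 3317 were called higher and 530 lower, with the members still at 14 and 7. Higher calls were thus a larger part of that set than of the members, and lower calls a smaller part. The medians were 0.095 over members (0.22 without PGC replicate 1 and -0.036 without PGC replicate 2) and 0.27 over all genes. Those higher included 5 of 7 core subunits of complex I (among them Ndufs3, Ndufs7, Ndufs8 and Ndufv1), Uqcrc1 (2.59 ± 0.19, adjusted p = 6.3e-04) and Cox8c, and those lower included Cox7c, Cox7b2, Ndufc1, Sdhaf4, Ndufa4 and Ndufa1. This split was 3 higher and 33 lower after median centring and 2 and 22 with GC and length adjusted, which called 0 of the 7 core subunits higher. Of these, 1 was called after median centring, 2 after quantile normalization and 5 by voom. When these 4 libraries were fitted alone, limma called 0 members, with 44 at an unadjusted p under 0.05, and voom on all libraries called 10 higher and 10 lower.

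In PGCs against pESC-PGCLCs, 0 members were called higher and 6 lower, where 2.07% and 1.6% of all genes were. Among the 17694 genes with at least 1 TPM in 2 libraries, 667 were called higher and 521 lower, with the members still at 0 and 6. The medians were -0.24 over members and 0.11 over all genes. The former was -0.095 without PGC replicate 1, -0.34 without PGC replicate 2 and -0.16 without pESC-PGCLC replicate 1. Without adjustment, limma gave p under 0.05 for 5 members that were higher and 33 that were lower, and voom called 0 and 7. The 6 members were Sdhd, Uqcrc1 (-1.49 ± 0.19, adjusted p = 0.013), Sdhb, Ndufs7, Ndufb8 and Ndufa9. No member was called without either pESC-PGCLC library or without PGC replicate 1. There were 2 calls without either ESC library and 11 without PGC replicate 2.

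GC content moved with several of these comparisons. Over the 94 members with an annotated model, Pearson's r between GC content of the exons and log2 fold change was -0.40 in ESC-PGCLCs against ESCs, against -0.24 over 14728 genes, and 0.45 in pESC-PGCLCs against ESC-PGCLCs, against 0.32. It was 0.45 against 0.36 in PGCs against ESC-PGCLCs and 0.38 against 0.30 in the interaction. It was -0.11 against -0.13 in pESCs against ESCs, and -0.21 against -0.04 in PGCs against pESC-PGCLCs. In pESC-PGCLCs against pESCs it was -0.04 against -0.03. For the log2 of exon length, r was -0.50 over members against -0.14 over all in pESCs against ESCs. It was -0.26 against 0.16 in ESC-PGCLCs against ESCs, 0.12 against 0.22 in pESC-PGCLCs against pESCs, and 0.35 against 0.03 in the interaction. In pESC-PGCLCs and in PGCs against ESC-PGCLCs it was 0.25 against -0.04 and 0.25 against 0.08. In PGCs against pESC-PGCLCs it was -0.11 against 0.15. These values run across genes of the same libraries, which are not independent replicates. The exons of Cox7c had a GC content of 44.3% and those of Uqcrb 41.3%, while Uqcrc1 was at 55.1%, Ndufs7 at 58.8% and Cox8a at 58.6%, with a median of 49.6% over members. ESC-PGCLCs also had the fewest reads (7697694 and 6779838). Depth was not adjusted for, and its part in the results was not tested. With GC and length adjusted, 7 of the 67 called changes of named members lost their call. In ESC-PGCLCs against ESCs this fit called 2 in place of 6 core subunits of complex I lower, and the core subunit with a positive change, Ndufs1 (not called), turned negative.

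**Figure D5:**
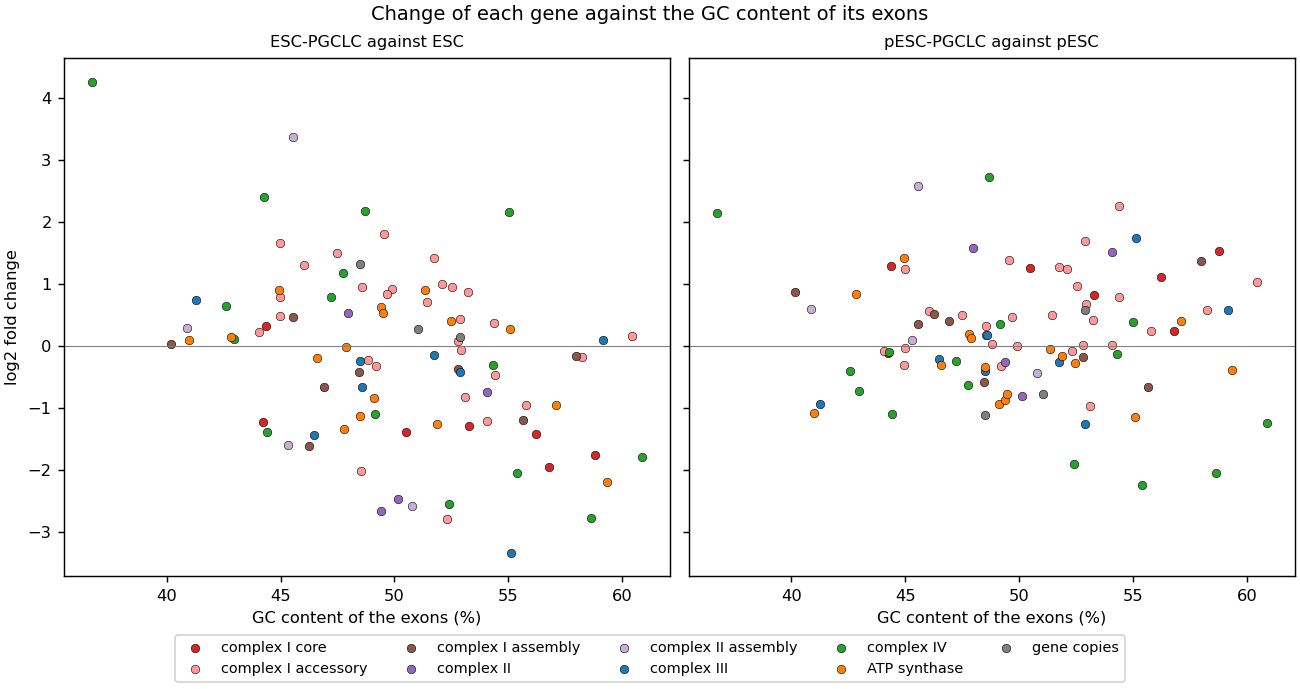
Log2 fold change (vertical axes) of members against the GC content of their exons in percent (horizontal axes), in ESC-PGCLCs against ESCs (left) and in pESC-PGCLCs against pESCs (right), with points colored by complex and role. In the left panel low-GC members lie higher than high-GC members (r = -0.40, 94 members), and in the right panel r is -0.04.

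Some members share sequence with other genes. In 23 members at least 1 window of 100 exon bases occurs in another gene, and in 9 over 10% do, led by Ndufb4c (100%, shared with Ndufb4), Cox6c2 (34.8%) and Atp5g2 (34.7%, and called in no comparison). Values of these members are uncertain where reads could fall on either gene.

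Of 11 chain genes that the symbol rule does not take, 5 were called higher and 1 lower in the ESC line, 5 and 1 in the pESC line, and 4 and 2 in the interaction. For this list and those below, the shares of all genes tested were 15.3% higher and 14.5% lower in the ESC line. They were 20.8% and 6.8% in the pESC line, and 15.5% and 3.53% in the interaction. In pESC-PGCLCs against ESC-PGCLCs they were 10.3% and 3.08%, and in PGCs against ESC-PGCLCs 12% and 1.88%. In PGCs against pESC-PGCLCs they were 2.07% and 1.6%, and in pESCs against ESCs 0.165% and 0.616%. The lists were not counted under other scalings. Cyct, the testis form of cytochrome c, was at 85.7 and 108 TPM in ESCs, 251 and 346 in pESCs, 1435 and 1528 in ESC-PGCLCs, 797 and 631 in pESC-PGCLCs, and 979 and 967 in PGCs. It rose in both lines (3.93 ± 0.20, adjusted p = 5.7e-06, and 1.26 ± 0.20, adjusted p = 0.0015), was higher in PGCLCs and PGCs than in all stem cells, and was also the gene of this list called in pESCs against ESCs (1.60 ± 0.20, adjusted p = 0.021). Cycs, the somatic form, was at 363 and 419 TPM in ESCs, 314 and 466 in pESCs, 843 and 958 in ESC-PGCLCs, 526 and 506 in pESC-PGCLCs, and 343 and 488 in PGCs. Thus per exon length Cyct was above it in all PGCLC and PGC libraries and below it in all stem cell libraries. Cyc1, the cytochrome of complex III, was at 119 and 91.8 TPM in ESCs, 55.9 and 59.5 in pESCs, 64.2 and 72.2 in ESC-PGCLCs, 171 and 172 in pESC-PGCLCs, and 131 and 139.9 in PGCs. It rose in the pESC line (1.55 ± 0.15, adjusted p = 1.3e-04). The list had 3 genes called higher and 2 lower in pESC-PGCLCs against ESC-PGCLCs, 1 and 2 in PGCs against ESC-PGCLCs, and 0 in PGCs against pESC-PGCLCs.

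The 36 further assembly factors showed calls in both directions in the ESC line (6 higher, 11 lower) and upwards in the pESC line (10 higher, 0 lower), with 15 higher and 2 lower in the interaction. Coa3, a factor for the assembly of complex IV, was at 211 and 177 TPM in ESCs, 128 and 179 in pESCs, 89.7 and 70.7 in ESC-PGCLCs, 379 and 386 in pESC-PGCLCs, and 126 and 202 in PGCs. Bcs1l, which inserts the iron-sulfur protein into complex III, was at 15.2 and 16.2 TPM in ESCs, 8.31 and 11.7 in pESCs, 5.08 and 3.81 in ESC-PGCLCs, 18.1 and 17.8 in pESC-PGCLCs, and 12.1 and 15.2 in PGCs. Both were lowest in ESC-PGCLCs, with interactions of 2.60 ± 0.37, adjusted p = 0.0022, and 2.42 ± 0.29, adjusted p = 0.0012. In the other comparisons, 0 were called in pESCs against ESCs, 10 higher and 2 lower in pESC-PGCLCs against ESC-PGCLCs, 8 and 1 in PGCs against ESC-PGCLCs, and 0 and 1 in PGCs against pESC-PGCLCs.

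The mitochondrial genome encodes 13 subunits of the same complexes. Of these mRNAs, 3 were called higher and 3 lower in the ESC line, 2 and 3 in the pESC line, and 2 and 5 in the interaction. There were 1 and 2 in pESC-PGCLCs against ESC-PGCLCs, 1 and 2 in PGCs against ESC-PGCLCs, 2 and 1 in PGCs against pESC-PGCLCs, and 0 in pESCs against ESCs. Of 16 genes that transcribe or copy mitochondrial DNA, 5 were higher and 4 lower in the ESC line, 4 and 0 in the pESC line, and 7 and 0 in the interaction. There were 1 and 1 in pESC-PGCLCs against ESC-PGCLCs, 3 and 1 in PGCs against ESC-PGCLCs, and 0 in the remaining comparisons. Tfam, which packages and transcribes that genome, was between 17.2 and 32.2 TPM and was called in no comparison. Lrpprc, which stabilizes mitochondrial mRNAs, was at 8.31 and 8.66 TPM in ESCs, 4.87 and 6.27 in pESCs, 28.6 and 28.7 in ESC-PGCLCs, 49.8 and 53.0 in pESC-PGCLCs, and 49.3 and 56.8 in PGCs. It rose in both lines (1.65 ± 0.15, adjusted p = 6.8e-05, and 3.003 ± 0.15, adjusted p = 7.6e-06).

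Of 14 regulators of respiratory genes, 5 rose and 0 fell in each line, and 2 were higher in the interaction. In the other comparisons, 1 was lower in pESC-PGCLCs against ESC-PGCLCs, 1 was higher in PGCs against ESC-PGCLCs and 2 in PGCs against pESC-PGCLCs, and 0 were called in pESCs against ESCs. Nrf1, whose motif letters stand in the Uqcrc1 promoter, was at 6.7 and 6.47 TPM in ESCs, 3.13 and 4.32 in pESCs, 3.5 and 3.61 in ESC-PGCLCs, 4.17 and 4.61 in pESC-PGCLCs, and 7.53 and 6.42 in PGCs. It was not called in either line. Gabpa, the DNA-binding subunit of an ETS factor, was at 15.9 to 40.1 TPM and was likewise not called. Yy1 was at 9.37 and 12.6 TPM in ESCs, 6.65 and 12.5 in pESCs, 22.9 and 29.5 in ESC-PGCLCs, 15.6 and 21.0 in pESC-PGCLCs, and 31.8 and 29.5 in PGCs. It was called in the ESC line (1.18 ± 0.29, adjusted p = 0.011). Hif1a, which responds to low oxygen, was at 12.1 and 13.8 TPM in ESCs, 7.49 and 12.1 in pESCs, 78.7 and 82.1 in ESC-PGCLCs, 52.5 and 56.7 in pESC-PGCLCs, and 71.7 and 97.5 in PGCs. It was higher in all PGCLC and PGC libraries than in stem cells, with log2 fold changes of 2.55 ± 0.23, adjusted p = 6.4e-05, and 2.40 ± 0.23, adjusted p = 1.1e-04. The coactivator Ppargc1a stayed at 0.306 TPM or less.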

How the data were processed

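The authors deposited a table of TPM values for 36066 genes in 10 libraries (5 groups of 2). According to the study's methods, reads were aligned to mm10 with HISAT2 and counted per gene with Feature-counts, and the submitters' processing notes also name Bowtie2, RSEM, DESeq2 and R 3.4.2. The step that made the TPM values is not given in the sources used here, and the methods and labels name different library kits. TPM times the summed exon length of a gene (GENCODE models) gave whole reads, within 0.05, for 95.5% to 95.9% of values in each library, and these sums gave the depths.

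Members and lists were chosen with earlier results of these data known. Genes with at least 0.1 TPM in 2 libraries (27259) were fitted as log2(TPM + 1) with 1 mean per group over all 10 libraries in limma 3.58.1 (R 4.3.3) with a variance trend, leaving 5 residual degrees of freedom, and adjusted by the Benjamini-Hochberg method over all of them. All tests were two-sided. The fit was tested on simulated data. Python 3.11.15 was used for the other steps. Promoters came from RefSeq.

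Members named were the 6 largest changes in each direction of each comparison among those called, the most abundant member of each role, the tissue forms of complex IV, and the 3 widest and 3 narrowest ranges. Others were named after their values were seen. The values of 1 member are not reported here by name. The fit was repeated with a pseudocount of 0.1, with a minimum of 1 TPM or none, with no fold minimum, on the compared groups alone, after quantile normalization or median centring, with the replicate number as a block, and without each library in turn. Voom on the recovered reads and adjustment for GC content and length (spline, 5 degrees of freedom) were added after seeing the data.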

Additional observations from a re-analysis of the deposited data

Results flagged for a closer look

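The change from stem cells to PGCLCs differed between the lines for 41 members by limma's test of the interaction (the change in the pESC line minus that in the ESC line), each at an adjusted p under 0.05 and at least 2-fold. The members with the largest interaction upwards, on the log2 scale, were Uqcrc1 (5.06), Ndufs7 (3.30), Ndufa10 (2.71), Ndufs3 (2.63), Ndufv1 (2.53) and Sdhd (2.39). The largest downwards were Cox7c (-2.48), Cox6c2 (-2.44), Cox7b2 (-2.12), Cox6c (-1.79), Cox7a1 (-1.77) and Ndufc1 (-1.70). Each group had 2 libraries, so no group was searched for a library far from the others.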

How the results depend on the processing

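All counts are of members called by limma. Of 67 results for single members named above, chosen as the largest called changes, 0 reversed under any setting, which that choice made likely from the start. Calls were lost for 19 of them with the compared groups fitted alone, 10 after quantile normalization, 7 with GC and length adjusted, 5 after median centring, 3 with no filter, 2 with a pseudocount of 0.1, 1 by voom, 0 with a filter of 1 TPM, and 1 to 12 on leaving out 1 library. The causes were not tested. In pESCs against ESCs the count of 1 was 0 with no filter, quantile normalization, median centring, the groups alone, or GC and length adjusted, 2 with no fold minimum, and 0 to 5 on leaving out a library; the median of 0.063 was 0.40 after centring, 0.19 by voom and 0.18 with GC and length adjusted. With no fold minimum, 50 members were called in pESC-PGCLCs against pESCs, 57 in pESC-PGCLCs against ESC-PGCLCs, 46 in PGCs against ESC-PGCLCs and 14 in PGCs against pESC-PGCLCs. In PGCs against ESC-PGCLCs the count of 21 was 10 after quantile normalization, 36 after centring and 0 with the groups alone, as it was in PGCs against pESC-PGCLCs (6 in all groups). Medians in ESC-PGCLCs against ESCs were 0.13 after quantile normalization, -0.10 by voom and 0.067 with GC and length adjusted. After quantile normalization the median was 0.065 in pESC-PGCLCs against ESC-PGCLCs and 0.023 in the interaction. After median centring it was -0.60 in pESC-PGCLCs against pESCs, -0.085 in pESC-PGCLCs against ESC-PGCLCs, -0.51 and -0.44 in PGCs against ESC-PGCLCs and pESC-PGCLCs, and -0.43 in the interaction. By voom it was -0.17, 0.22 and 0.052 in pESC-PGCLCs against pESCs, in pESC-PGCLCs against ESC-PGCLCs and in the interaction, and with GC and length adjusted -0.32, -0.14 and -0.30, and -0.42 in PGCs against ESC-PGCLCs. Leaving out 1 library gave counts of 39 to 43 in ESC-PGCLCs against ESCs, 25 to 29 in pESC-PGCLCs against pESCs, 26 to 33 in pESC-PGCLCs against ESC-PGCLCs (medians 0.29 to 0.40), 15 to 29 in PGCs against ESC-PGCLCs (medians -0.036 to 0.22), 0 to 11 in PGCs against pESC-PGCLCs, 30 to 43 in the interaction and 66 to 85 in the F test; a group left with 1 library is assumed to vary like the others. Same-numbered libraries deviated with correlations of -0.094 to 0.347 over 10 pairs of groups. With 2 libraries in each group, these values cannot settle whether the numbers pair any of the samples. With the replicate block, the counts were 0 in pESCs against ESCs, 41, 28, 33, 22 and 5 in the next 5 comparisons, 42 in the interaction and 81 in the F test, and 2 of the 67 results lost their call. Depth limits Sdhaf1 and Cox8c, with 2 and 3 reads in their lowest library.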

Other observations

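Of 18 enzymes of glycolysis, 0 were higher and 14 lower in ESC-PGCLCs against ESCs (median log2 fold change -3.23), and 0 and 8 in pESC-PGCLCs against pESCs (median -0.95). In these comparisons 14.5% and 6.8% of all genes were called lower, and the enzymes were not tested against the members or under other scalings. They were higher for 11 and lower for 0 both in pESC-PGCLCs and in PGCs against ESC-PGCLCs, and 13 were higher in the interaction, while 1 was lower in pESCs against ESCs and 0 were called in PGCs against pESC-PGCLCs. Of all genes tested, 10.3% were called higher in pESC-PGCLCs against ESC-PGCLCs, 12% in PGCs against ESC-PGCLCs and 15.5% in the interaction. In pESCs against ESCs, 0.616% were called lower.

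Of 19 enzymes of the TCA cycle and pyruvate dehydrogenase, 4 were higher and 6 lower in the ESC line and 13 and 0 in the pESC line, with 11 and 0 in the interaction, 5 and 0 in pESC-PGCLCs against ESC-PGCLCs, 8 and 0 in PGCs against ESC-PGCLCs, 0 and 1 in PGCs against pESC-PGCLCs, and 0 in pESCs against ESCs. Mdh2, malate dehydrogenase, had an interaction of 3.11 ± 0.19, adjusted p = 3.2e-04, and Idh3g, a subunit of isocitrate dehydrogenase, one of 2.72 ± 0.25, adjusted p = 5.4e-04. Among all genes tested, 15.3% were higher and 14.5% lower in the ESC line, 20.8% and 6.8% in the pESC line, and 15.5% and 3.53% in the interaction. The shares were 10.3% and 3.08% in pESC-PGCLCs against ESC-PGCLCs and 12% and 1.88% in PGCs against ESC-PGCLCs. In PGCs against pESC-PGCLCs they were 2.07% and 1.6%.

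Of 78 mitochondrial ribosomal proteins, 7 were higher and 30 lower in the ESC line, 23 and 0 in the pESC line, 50 and 2 in the interaction, 35 and 2 in pESC-PGCLCs against ESC-PGCLCs, 16 and 4 in PGCs against ESC-PGCLCs, 2 and 9 in PGCs against pESC-PGCLCs, and 0 in pESCs against ESCs. Of 91 cytosolic ones, 2 were higher and 19 lower in the ESC line, 2 and 26 in the pESC line, 13 and 13 in the interaction, 12 and 7 in pESC-PGCLCs against ESC-PGCLCs, 12 and 2 in PGCs against ESC-PGCLCs, 3 and 1 in PGCs against pESC-PGCLCs, and 0 in pESCs against ESCs. The shares of all genes tested were 15.3% higher and 14.5% lower in the ESC line, 20.8% and 6.8% in the pESC line, and 15.5% and 3.53% in the interaction. They were 10.3% and 3.08% in pESC-PGCLCs against ESC-PGCLCs, 12% and 1.88% in PGCs against ESC-PGCLCs, and 2.07% and 1.6% in PGCs against pESC-PGCLCs. These lists were chosen with earlier results of these data known, and the calls are those of limma over all genes. The lists were not counted under other scalings, which moved the splits of the members.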
